A study of Arabidopsis thaliana with 6 samples.

Results

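Apart from Rubisco, the Calvin cycle of *Arabidopsis thaliana* chloroplasts is run by enzymes that are encoded in the nucleus, and 10 genes for these proteins were followed in RNA that co-precipitated with the RNA-binding protein AtGRP7. They were picked by gene identifier from 33331 genes in the table, by a rule that uses no measured value, though earlier results of these data were known when the list was drawn up. The 10 are PGK1 (AT3G12780), GAPA1 (AT3G26650), GAPA2 (AT1G12900), GAPB (AT1G42970), TIM (AT2G21170), FBA1 (AT2G21330), FBA2 (AT4G38970), SBPASE (AT3G55800), PRK (AT1G32060) and CP12-2 (AT3G62410). In the RNA immunoprecipitation (RIP-seq) of the study, AtGRP7-GFP was captured on GFP-binding beads from formaldehyde-fixed aerial tissue and the RNA that came with it was sequenced without poly(A) selection. All 6 libraries were from AtGRP7::AtGRP7-GFP plants in the grp7-1 background, that is, a T-DNA mutant of AtGRP7 that carried the GFP fusion under the AtGRP7 promoter. All plants were raised in light-dark cycles and then released into continuous light. 3 libraries were from tissue fixed after 24 h in continuous light (LL24, subjective dawn) and 3 from tissue fixed after 36 h (LL36, subjective dusk), with plants bulked for each biological replicate.

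In the Calvin cycle, ribulose bisphosphate accepts CO2, the product is reduced to triose phosphate with ATP and NADPH, and most of the triose phosphate is used to regenerate the acceptor. Phosphoglycerate kinase and glyceraldehyde-3-phosphate dehydrogenase carry out the reduction. Triose phosphate isomerase, aldolase, sedoheptulose bisphosphatase and phosphoribulokinase belong to the regeneration. The small protein CP12 is no enzyme: it joins glyceraldehyde-3-phosphate dehydrogenase and phosphoribulokinase into a complex in which both are inhibited, and thioredoxins release them in the light. Many genes for photosynthesis in this plant are known to be rhythmic under the circadian clock. AtGRP7 is itself a clock-controlled protein that peaks toward the evening, so the comparison of LL24 with LL36 asks which transcripts came down with it at opposite phases of the cycle.

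Of the 10 transcripts, 8 were lower at LL36 than at LL24, 1 was higher, and 1 did not pass the test. The lower ones were led by the plastid aldolases FBA1 (4.47-fold) and FBA2 (2.79-fold) and by SBPASE (2.25-fold), and the one that was higher was CP12-2 (1.66-fold). PRK, for phosphoribulokinase, was the one not called. The values are TPM, the length-corrected share of a transcript in the sequenced RNA, brought to a common scale by 1 factor per library, and are called scaled TPM. The test was limma on log2(scaled TPM + 1) over the 789 genes whose deposited TPM averaged at least 5, with Benjamini-Hochberg adjusted p under 0.05 as threshold. A difference on this scale understates the change of a gene at a low level. All 10 passed the limit of 5. SBPASE passed it only through LL24, with deposited TPM of 15.3, 10.4 and 12.6 there and 5.37, 5.91 and 3.02 at LL36. Of all tested genes, 24.1% were called lower at LL36 and 19.9% higher. The median log2 difference, LL36 minus LL24, was -0.54 over the 10 and 0.02 over all tested genes. Without overlap between the libraries of the time points, 8 of the 10 were lower and 1 higher, against 29.4% and 27.9% of all tested genes. When all 22084 genes above 0 were fitted with no limit on TPM, 3 of the 10 were called lower (FBA1, FBA2 and SBPASE) and 1 higher (CP12-2), against 5.24% lower and 4.05% higher of all.

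**Figure D1:**
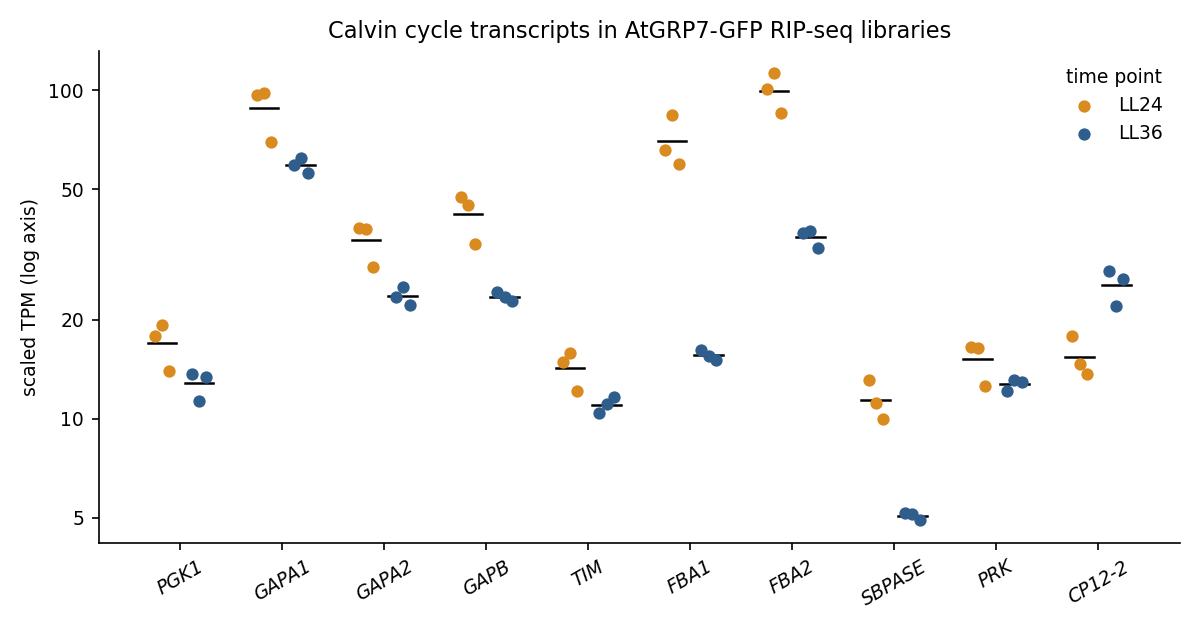
Scaled TPM (log axis) of the 10 Calvin cycle transcripts in each library at LL24 (orange) and LL36 (blue), with a black line at the mean of 3 libraries, ordered by place in the cycle. FBA1, FBA2 and SBPASE stand farthest apart between the time points, CP12-2 is higher in every LL36 library, and PRK overlaps.

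These are values of precipitated RNA. A difference between time points can come from the amount of a transcript in the tissue, from its capture, or from both, and no input RNA was used here to tell them apart. No precipitate of GFP-only plants or of mock beads is among the 6 libraries, so RNA carried along unspecifically cannot be told from bound RNA here. In bulk tissue, fewer cells of a type and less RNA per cell cannot be told apart either. TPM keeps no read depth, so the depth behind each value is unknown, and the precision is taken from the spread of the libraries. The listed genes held 9.59% to 16.6% of the total that TPM of a whole library add up to, and the scaling factors ran from 0.615 to 1.26. The AtGRP7 transcript itself was at 3.09 ± 0.394 scaled TPM at LL24 but at 230.9 ± 24.3 by LL36 (SD, 3 libraries each), so the protein's own message differed far more between the time points than any of the 10. The 5 markers of green aerial tissue were above 0 in all libraries, and their sum was 3841 to 4680 scaled TPM at LL24 and 3084 to 3343 at LL36, with 3 of the 5 called lower and 1 of the 5, RBCS1A, also in the Rubisco list. Of 5 root markers, 3 or 4 were at 0 in each library, and their sum was 1.33 to 1.89 at LL24 and 0.981 to 1.21 at LL36. The 3 guard cell markers, none at 0, summed to 0.177 to 0.339 at LL24 and 0.109 to 0.129 at LL36. Only KAT1 (AT5G46240) among them was called lower in the limma fit without a limit (log2 difference -0.0897, adjusted p = 0.0197). Its level was near the floor, at 0.0991 scaled TPM at LL24 and 0.0272 at LL36. All 3 marker sums were thus lower in every LL36 library than in every LL24 library, as were most of the 10. Single markers did not all go that way. CAB1 (AT1G29930), of the green tissue markers, was at 1875 ± 221 scaled TPM at LL24 and 1869 ± 48.2 at LL36. The root sum came almost only from PYK10 (AT3G09260), at 1.54 ± 0.308 and 1.06 ± 0.124. The part of these markers in the results was not tested.

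The 10 genes are all protein coding and lie on chromosomes 1 to 4 of TAIR10.1. The windows shown next are the 21 nt of each 3′ UTR that hold the most of 5 U-rich pentamers, which the study listed as enriched around AtGRP7 crosslinks in 3′ UTRs. They are shown because paralogs among the 10 differ in them. Capitals mark a match to UUCUG or to any of the others, which are UUGUA as well as GUGUU, together with UGUUU and further UCUGU, searched on the transcript strand only, and they can overlap. Positions count from the first base of the 3′ UTR in TAIR10.1 (RefSeq).
GAPA1, 132 to 152: acuUGUUUacauuuuGUGUUU
GAPA2, 50 to 70: gauucggaauguauaaUUGUA
GAPB, 30 to 50: ucaccaaaacaauacuUUGUA
FBA1, 87 to 107: uauaaaagucagUUCUGUGUU
FBA2, 34 to 54: aUGUUUuaaucacauuUGUUU
PRK, 115 to 135: ggacggucuugcuUGUUUGUA
CP12-2, 109 to 129: uaaaaacauUUGUAauUUGUA
CP12-1, 67 to 87: cuuguuguuaUGUUUGUGUUU
The whole 3′ UTR of GAPA1 (197 nt) held 7 of these pentamers, whereas that of GAPA2 (196 nt) held 1. FBA1 had 9 in 294 nt and FBA2 had 2 in 218 nt. Among 3′ UTRs of at least 50 nt in the annotation, 92.75% held at least 1, with a median of 13.7 per kilobase and a middle range of 8.0 to 20.5. By this measure GAPA1 (35.5 per kilobase) and FBA1 (30.6) lay above the middle range, and PGK1 (4.83), GAPA2 (5.10) and TIM (6.39) below it. A match is a run of letters and does not show a binding site.

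In the reduction of the cycle, phosphoglycerate kinase makes 1,3-bisphosphoglycerate. The plastid enzyme gene PGK1 (chr3:4060920-4063306, minus strand) gave 17.9, 19.3 and 14.0 scaled TPM at LL24 and 13.7, 11.4 and 13.5 at LL36. The lowest LL24 library was thus just above the highest of LL36. The log2 difference was -0.37 (SE 0.13) with a limma adjusted p of 0.0489, next to the threshold. Of 17 alternative settings it was not called in 13, so it is a call that most other choices end. The second plastid isoform gene, PGK2 (AT1G56190), was under the limit at 3.27 ± 0.447 and 2.15 ± 0.211 scaled TPM (SD, n = 3) and was not called without the limit (adjusted p = 0.205).

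Glyceraldehyde-3-phosphate dehydrogenase of chloroplasts, the NADPH-using step, is built of A subunits, from GAPA1 and GAPA2, and B subunits from GAPB, whose tail resembles CP12. GAPA1 (chr3:9794862-9797045, plus strand) was at 96.6, 97.8 and 69.5 scaled TPM at LL24 and at 59.2, 62.1 and 55.8 at LL36. GAPA2 (chr1:4392438-4394454, minus strand) was at 38.0, 37.9 and 28.9 at LL24 and 23.6, 25.1 and 22.2 at LL36. GAPB (chr1:16127353-16129895, plus strand) was at 47.5, 44.7 and 34.1 at LL24 and 24.2, 23.6 and 22.8 at LL36. For all 3 subunit genes every LL24 library was above every LL36 library, and LL24 replicate 3 lay well below the other LL24 libraries. The log2 differences were -0.55 (SE 0.14, adjusted p = 0.0166) for GAPA1, -0.54 (SE 0.12, adjusted p = 0.0102) for GAPA2 and -0.80 (SE 0.13, adjusted p = 0.0019) for GAPB in the limma fit. GAPA1 was not called without LL24 replicate 1 (adjusted p = 0.0543) or without LL24 replicate 2 (adjusted p = 0.0598). Neither A subunit gene was called by limma on the TPM as deposited (adjusted p = 0.0669 for GAPA1 and 0.0833 for GAPA2) or on the full-sum scale, where the listed TPM are rescaled to one common sum (0.0528 and 0.0653), and none of the 3 was called without a limit on TPM (adjusted p = 0.235, 0.203 and 0.0645).

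The ratio of the 2 A subunit transcripts differed little between the time points, while the A subunits were higher relative to the B subunit at LL36. GAPA1 over GAPA2 was 2.54, 2.58 and 2.41 at LL24 and 2.52, 2.47 and 2.52 at LL36, so the libraries of the time points overlapped. The log2 ratio differed by -0.0042 (SE 0.032; exact permutation test, two-sided, p = 1). The coding sequences of GAPA1 and GAPA2 are 85.8% identical, and their 3′ UTR windows are those printed above. Summed GAPA1 and GAPA2 over GAPB was 2.83, 3.04 and 2.89 at LL24 and 3.41, 3.70 and 3.42 at LL36, higher in every LL36 library. That difference of 0.27 on the log2 scale (SE 0.048) had an exact permutation p of 0.1, the smallest that 3 against 3 allows, and 0.133 after Benjamini-Hochberg adjustment over 4 ratios. Ratios were taken within a library and do not depend on the scaling.

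The regeneration steps start with triose phosphate isomerase, which interconverts both triose phosphates. Its plastid gene TIM (chr2:9070734-9074470, minus strand) was at 14.9, 15.9 and 12.1 scaled TPM at LL24 and 10.5, 11.1 and 11.6 at LL36. The libraries did not overlap, but LL24 replicate 3 was close to the LL36 ones. The log2 difference was -0.34 (SE 0.11, limma adjusted p = 0.0372). TIM was not called in 12 of 17 alternative settings.

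Plastid aldolase joins triose phosphates, and sugar with a triose, to the bisphosphates of the cycle. FBA1 (chr2:9128122-9130619, minus strand) gave the widest fold difference of the 10, at 65.8, 84.1 and 59.6 scaled TPM at LL24 and 16.2, 15.5 and 15.1 at LL36. FBA2 (chr4:18163496-18166008, minus strand), the most abundant of the 10 at LL24, was at 100.9, 112.7 and 85.2 at LL24 and 36.7, 37.2 and 33.2 at LL36. For both genes even the lowest LL24 library was more than the highest LL36 library by a wide margin. The log2 differences were -2.08 (SE 0.13, limma adjusted p = 1.28e-05) for FBA1 and -1.45 (SE 0.12, adjusted p = 4.74e-05) for FBA2. Both were called in all 17 alternative settings. Among the 789 tested genes, FBA1 went from place 55 by level at LL24 to place 267 at LL36, and FBA2 from place 41 to place 101. The ratio of the 2 aldolase transcripts, FBA1 over FBA2, was 0.652, 0.746 and 0.700 at LL24 and 0.443, 0.417 and 0.456 at LL36, lower in every LL36 library. The log2 ratio differed by -0.67 (SE 0.068; exact permutation p = 0.1, adjusted 0.133). Their coding sequences are 84.1% identical. The third plastid aldolase gene, FBA3 (AT2G01140), was under the limit at 2.07 ± 0.275 and 1.63 ± 0.0207 scaled TPM (SD, n = 3).

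Sedoheptulose-1,7-bisphosphatase removes a phosphate in a step that commits carbon to regeneration, and thioredoxin activates it in the light. SBPASE (chr3:20709294-20711640, plus strand) had the lowest level of the 10 at both times, with 13.1, 11.2 and 9.97 scaled TPM at LL24 and 5.18, 5.15 and 4.92 at LL36. The LL36 libraries were tightly placed and all below the LL24 ones. The log2 difference was -1.02 (SE 0.10, limma adjusted p = 0.000166), and it was called in all 17 alternative settings.

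Phosphoribulokinase forms the CO2 acceptor ribulose bisphosphate and closes the cycle. PRK (chr1:11532199-11534639, plus strand) was at 16.5, 16.4 and 12.6 scaled TPM at LL24 and 12.2, 13.1 and 12.9 at LL36, and the time points overlapped through LL24 replicate 3. The log2 difference was -0.23 (SE 0.11, 95% interval -0.49 to 0.03, limma adjusted p = 0.133). Without LL24 replicate 3 it was -0.36 with an adjusted p of 0.0104, so that 1 library decides the call.

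CP12-2 (chr3:23090944-23091580, plus strand), for the linker protein, went the other way, at 17.9, 14.6 and 13.7 scaled TPM at LL24 and 28.1, 22.0 and 26.7 at LL36. Every LL36 library was above every LL24 library. The log2 difference was 0.70 (SE 0.13, limma adjusted p = 0.0041). It was 0.41 and not called on the TPM as deposited (adjusted p = 0.529), and it was called in the other 16 alternative settings. CP12-2 over PRK was 1.08, 0.891 and 1.08 at LL24 and 2.31, 1.68 and 2.06 at LL36, so the linker transcript was level with that of its partner at LL24 and above it at LL36. That log2 ratio differed by 0.98 (SE 0.16; exact permutation p = 0.1, adjusted 0.133).

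**Figure D2:**
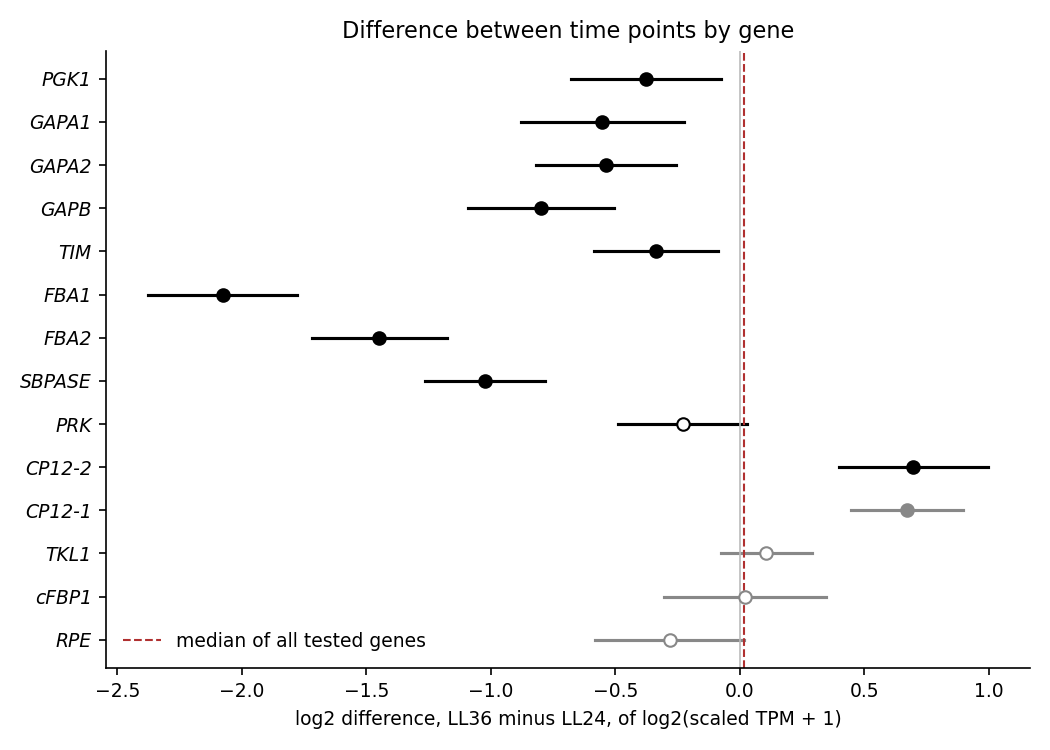
Log2 difference, LL36 minus LL24, of log2(scaled TPM + 1) with its 95% interval from limma for the 10 transcripts (black) and 4 further Calvin cycle genes tested (grey). Filled points were called, open ones were not, and the dashed line is the median of all tested genes (0.02). FBA1 lies lowest at -2.08, and both CP12 genes lie near 0.7.

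The levels of the 10 could be ordered within a library, since TPM are per length. At LL24 the order of means was FBA2 (99.6 scaled TPM), GAPA1 (88.0), FBA1 (69.9), GAPB (42.1), GAPA2 (34.9), PGK1 (17.1), CP12-2 (15.4), PRK (15.2), TIM (14.3) and SBPASE (11.4). Each neighbour order held in all 3 LL24 libraries, apart from PGK1 over CP12-2 and CP12-2 over PRK, which held in 2. At LL36 the order was GAPA1 (59.1), FBA2 (35.7), CP12-2 (25.6), GAPA2 (23.6), GAPB (23.5), FBA1 (15.6), PGK1 (12.9), PRK (12.7), TIM (11.1) and SBPASE (5.08). There CP12-2, GAPA2 and GAPB could not be ordered in all 3 libraries, nor could PGK1 and PRK.

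Summed over the 10, the level was 407.8 ± 60.3 scaled TPM at LL24 against 224.8 ± 5.63 at LL36 (SD, n = 3), which is 1.81-fold. The make-up of that sum changed too. FBA1 made up 17.1% ± 1.62 of it at LL24 and 6.95% ± 0.111 at LL36, and FBA2 24.5% ± 0.827 and 15.9% ± 0.654. The share of CP12-2 was 3.81% ± 0.514 at LL24 and 11.4% ± 1.44 at LL36. GAPA1 held 21.5% ± 1.02 and 26.3% ± 1.03, whereas GAPB held about the same share at both times (10.3% ± 0.664 and 10.5% ± 0.0783). No test was run on these shares.

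**Figure D3:**
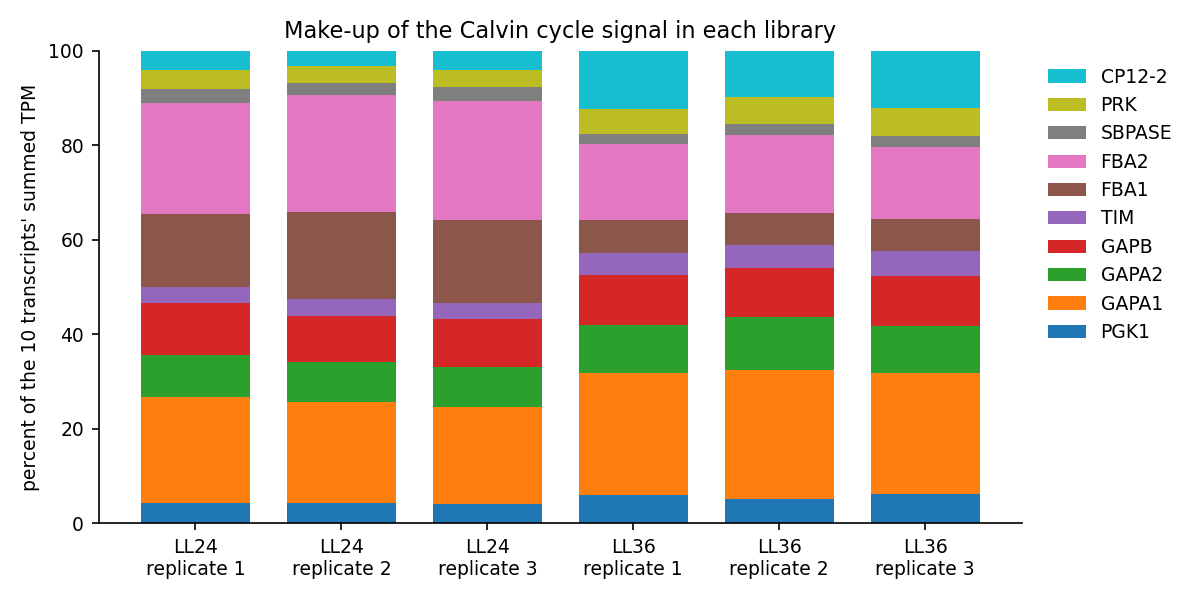
Percent of the summed TPM of the 10 transcripts that each transcript makes up, 1 bar per library. The FBA1 and FBA2 segments are thinner and the CP12-2 segment is thicker in all 3 LL36 bars than in all 3 LL24 bars.

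**Figure D4:**
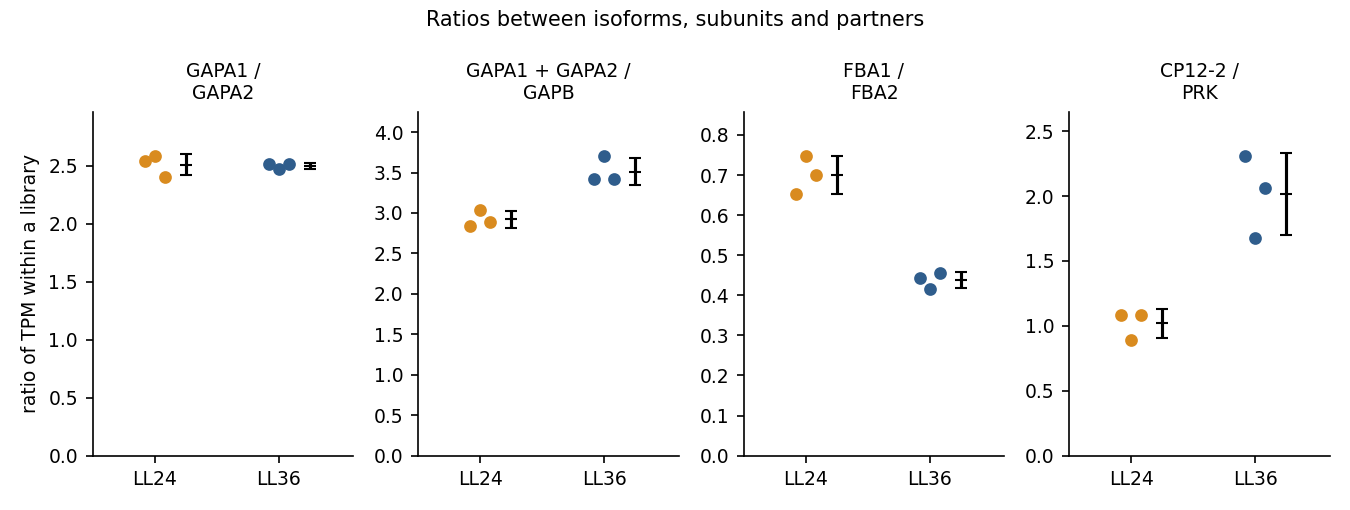
Ratio of TPM within each library for 4 pairs at LL24 (orange) and LL36 (blue), with mean and SD of 3 libraries beside the points, on axes that start at 0. GAPA1 over GAPA2 stays near 2.5 in all 6 libraries, and the other ratios do not overlap between the time points.

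The 10 varied together within LL24. LL24 replicate 3 had the lowest scaled TPM of its group for all 10, CP12-2 included, against 41.4% of all tested genes. This was not particular to the 10. The same library was lowest for every Rubisco gene and every tested further Calvin cycle gene. It was also lowest for every tested thioredoxin gene and every tested photorespiration gene but GLDP1. The coefficient of variation over the LL24 libraries was 13.6% to 18.2% for the 10, against a median of 9.28% over all tested genes, and it was 2.79% to 12.5% at LL36, against a median of 7.85%. All 10 varied more at LL24 than at LL36, as did 57.2% of the tested genes. Without LL24 replicate 3, 9 of the 10 were called lower. Without LL24 replicate 1, and likewise without LL24 replicate 2, 5 were called lower, since GAPA1, PGK1 and TIM no longer passed.

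The count of calls depended on the scaling. On the TPM as deposited, where the median of all tested genes was -0.26, 4 of the 10 were called lower and 0 higher, and 19.8% of all calls were higher at LL36, against 45.2% with the scaling used. With the listed TPM of each library rescaled to one common sum, 4 were called lower and 1 higher, and 31.6% of all calls were higher. Without the 10 most abundant genes, 6 were lower and 1 higher, with 59.9% of all calls higher and a median of 0.12. In each of the 17 alternative settings, 9 of the 10 had a log2 difference below 0 and below the median of all genes in that fit, and CP12-2 was above both.

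**Figure D5:**
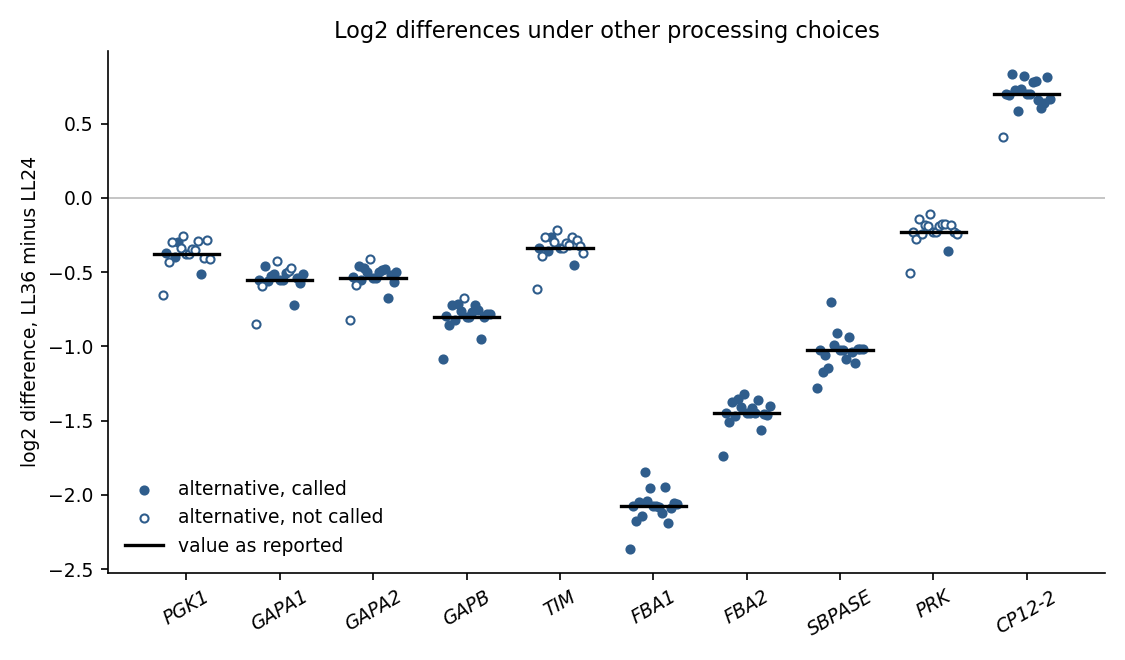
Log2 difference, LL36 minus LL24, of the 10 transcripts under each of the 17 alternative settings (filled points called, open points not called) and as reported (black lines). No gene crosses 0, and PGK1 and TIM have mostly open points.

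From a fixed list of 10 further nuclear genes for plastid enzymes of the cycle and CP12, 4 passed the limit of 5. CP12-1 (AT2G47400), the paralog of CP12-2 with 74.5% identity of coding sequence, was the only one called. Its level was 138.1 ± 7.00 scaled TPM in the LL24 libraries and 220.8 ± 16.5 in those of LL36 (SD, n = 3), with a log2 difference of 0.67 (SE 0.097, limma adjusted p = 0.0012). Both CP12 transcripts were thus higher at LL36, and the value of CP12-1 was above all of the 10 at both times. TKL1 (AT3G60750), for transketolase, was at 10.7 ± 0.708 and 11.6 ± 0.552 scaled TPM, and cFBP1 (AT3G54050), for plastid fructose bisphosphatase, at 9.09 ± 1.91 and 9.15 ± 0.763. RPE (AT5G61410), for ribulose phosphate epimerase, was at 13.1 ± 2.57 and 10.5 ± 0.517, with a log2 difference of -0.28 (adjusted p = 0.112) and no overlap between the time points. The remaining 6 were under the limit and none of them was called without it.

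In the other lists, genes of related functions gave the following counts, to be read beside the 24.1% of all tested genes called lower and 19.9% called higher. Of 5 Rubisco genes (small subunits and Rubisco activase), 4 were lower, with the widest log2 difference for RCA (AT2G39730, Rubisco activase) at -1.71. The one not called, RBCS1B (AT5G38430), was at 107 ± 2.05 scaled TPM at LL24 against 128 ± 14.6 at LL36 (SD, n = 3), higher in every LL36 library (log2 difference 0.25, limma adjusted p = 0.0833), and it is named here after its values were seen. Of 12 photorespiration genes, 9 were tested and all 9 were lower, led by GLDP1 (AT4G33010, glycine decarboxylase P protein) at -1.07 and GGAT1 (AT1G23310, glutamate:glyoxylate aminotransferase) at -1.05. Without the limit on TPM, 1 Rubisco gene and 6 photorespiration genes were called lower, against 5.24% of all genes. The 6 include GLDP2 (AT2G26080), which was under the limit and so not among the 9. Among cytosolic isoforms of the cycle's enzymes, 4 of 10 were tested, with 2 lower and 1 higher. Of the lower ones, GAPC1 (AT3G04120) passed the limit only through LL24, with deposited TPM of 8.94, 7.34 and 9.12 there and 5.43, 5.93 and 3.38 at LL36. Without the limit GAPC1 was not called (limma adjusted p = 0.162), and 1 cytosolic gene was lower and 2 were higher, against 5.24% and 4.05% of all genes. The cytosolic dehydrogenase GAPC2 (AT1G13440) was lower (-1.09), and the cytosolic aldolase FBA5 (AT4G26530) was higher at LL36 (1.49), opposite in sign to both plastid aldolases. Of 6 genes for thioredoxins and their reductase, 4 were tested and 0 were called by limma. TRXf1 (AT3G02730), with an adjusted p of 0.0523 in limma, was the 1 among them whose unadjusted p was under the threshold.

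The region upstream of the gene start was read because the 10 moved unequally. In the 250 bases before the annotated start, 4 motifs were searched on both strands: the G-box CACGTG, the evening element AAATATCT, the CCA1-binding site AAAAATCT and the I-box GATAAG. They were in 6.49%, 4.79%, 6.69% and 12.3% of 27443 promoters of protein-coding genes. Among the 10, the G-box was in 1 (PRK, bases -173 to -168) and the I-box in 1 (CP12-2, bases -69 to -64), and the others had no match. The windows of GAPA1, GAPB, PGK1, SBPASE, TIM and CP12-2 overlap a neighbouring annotated gene, which is AT3G62400 for CP12-2. With 1 of 10 each, these counts are near the shares over all promoters and say nothing about the 10. The sequences shown are the 30 bases around each match, and the upstream windows of PRK and of FBA1, which had the widest fold difference, in TAIR10.1 and on the strand of the gene, with motifs in capitals.
PRK G-box, chr1:11532014-11532043: attagaatctccCACGTGtcaattcaaata
CP12-2 I-box, chr3:23090863-23090892: tggttaatagagGATAAGaaatggggttca
PRK upstream, chr1:11531949-11532198, plus strand: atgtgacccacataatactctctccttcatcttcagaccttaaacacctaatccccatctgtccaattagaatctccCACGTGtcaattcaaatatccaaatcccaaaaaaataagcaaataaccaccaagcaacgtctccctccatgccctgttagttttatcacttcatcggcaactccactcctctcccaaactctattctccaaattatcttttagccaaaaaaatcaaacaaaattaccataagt
FBA1 upstream, chr2:9130620-9130869, minus strand: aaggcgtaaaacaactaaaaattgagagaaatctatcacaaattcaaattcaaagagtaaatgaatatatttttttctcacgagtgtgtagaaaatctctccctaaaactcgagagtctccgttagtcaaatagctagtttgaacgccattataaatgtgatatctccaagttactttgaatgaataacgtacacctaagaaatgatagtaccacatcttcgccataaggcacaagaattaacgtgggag
A match is a description only, and no match says only that these letters are not in this window.

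Counting between near copies was checked on the annotation. None of the 10 shared a stretch of 100 nt, or of 50 nt, with a transcript of another gene on either strand. GAPA1 overlaps AT3G26640 and TIM overlaps AT2G21172, and PRK and PGK1 overlap the antisense genes AT1G32070 and AT3G12775. No source used here says if reads were assigned by strand, so the values of PRK and PGK1 are uncertain where the genes overlap.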

How the data were processed

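The authors made RIP-seq libraries and sequenced them as single-end reads, trimmed them, aligned them with STAR 2.5.2a, estimated abundances with Salmon 0.8.2 against an Arabidopsis transcript annotation and summed them per gene with rRNA, mitochondrial and chloroplast genes left out, and the deposited unit is TPM per gene and library. The study's enrichment tests over poly(A) RNA were not used. Time points and replicate numbers came from the sample titles, and 6 columns that match no sample were not used.

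The members and lists here were chosen with earlier results of these data known. All 10 members, the tested further Calvin cycle genes, and at most 2 called genes of each other list are named, with overlapping neighbours. PGK2, FBA3, TRXf1, RBCS1B, KAT1, GAPC1, GLDP2, CAB1 and PYK10 are named as well, outside that rule. AtGRP7 is named as the transcript of the precipitated protein.

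Each library was divided by an unweighted trimmed mean of log ratios (30% of ratios and 5% of abundances trimmed at each end) over the 789 genes with mean deposited TPM of 5 or more. The linear model on log2(scaled TPM + 1) was that of limma 3.58.1 (R 4.3.3; trend, no covariate), two-sided, with Benjamini-Hochberg adjustment over all tested genes. The fit was tested on simulated data. Ratios were tested by exact permutation. Of the gene IDs, 32811 matched TAIR10.1 and 520 did not. Alternatives were other scalings, pseudocounts, limits, no variance trend, a replicate block and each library left out. The read depth is unknown, so precision rests on 3 libraries per time point.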

Additional observations from a re-analysis of the deposited data

How the results depend on the processing

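No log2 difference of the 10 transcripts changed sign under the 17 alternatives, and FBA1, FBA2 and SBPASE stayed called in each. The count of the 10 called lower, 8 as reported, was 4 on TPM as deposited, 4 on the full-sum scale and 3 without a limit, and 5 to 9 with a library left out, where the extremes were without LL24 replicate 1 or 2 (5) and without LL24 replicate 3 (9). CP12-2 was not called on TPM as deposited, which leaves 0 higher, and CP12-1 was not called there either (0 further genes higher). Of the further Calvin cycle genes, 1 was called lower with a limit of 1 and on the full-sum scale with trimmed-mean scaling, an alternative added after seeing the data. Over all tested genes, 101 were lower and 25 higher on TPM as deposited. The full-sum scale gave 505 lower without further scaling, and 740 lower and 626 higher with it. A limit of 1 gave 597 lower and 486 higher, and no limit gave 1157 and 894. All of these but the TPM as deposited tested more genes than the fit reported. The cause of the other shifts was not tested. None of the 4 ratio differences was called, and 3 against 3 allows no exact permutation p under 0.1. The log2 difference of GAPA1 over GAPA2 ran from -0.0342 to 0.0162 with 1 library left out. It turned sign without LL24 replicate 1 (0.0055), without LL24 replicate 2 (0.0162) and without LL36 replicate 2 (0.0045). The replicate numbers are shared by both time points. Deviations of same-numbered libraries over the tested genes correlated at 0.148, -0.0813 and -0.214. For differently numbered libraries the correlations ran from -0.225 to 0.235. These few values cannot tell whether same-numbered libraries were handled together. With the replicate block, 171 genes were lower and 127 higher, and of the 10, 6 were lower and 1 higher. The depth of the libraries cannot be had from TPM, so no detection limit was set.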
